A study of Mus musculus with 4 samples.

Results

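The tumour necrosis factor (TNF) superfamily is described here across 4 thymus RNA sequencing libraries. Its members were the rows of the deposited table whose symbol began with Tnfrsf, Tnfsf, Tnfaip or Traf and a digit, or was Tnf, Lta, Ltb, Ltbr, Fas, Fasl, Tradd, Fadd, Ripk1, Relb, Nfkb2 or Map3k14. The rule found 41 of the 10598 genes in the table, and all 41 passed a filter that required a mean of at least 10 normalised counts and left 10587 genes. They were 5 ligands, 14 receptors, 7 TRAF proteins, 3 TRAF3-interacting proteins, 3 death-domain adaptors and kinases, 3 genes of the non-canonical NF-kappaB pathway and 6 genes named as TNF-alpha-induced proteins. Tnf, Lta, Fasl and the family members without a row were not analysed here.

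All libraries came from thymus of C57BL/6J mice. Wild-type mice and mice lacking CAMKIIgamma (gene Camk2g, the gamma chain of a kinase activated by calcium and calmodulin) received 1 intraperitoneal injection of 75 mg/kg N-methyl-N-nitrosourea (MNU), an alkylating carcinogen that induces T-cell lymphoma, at 4 to 5 weeks of age. The labels of the MNU libraries give a treatment time of 6 months, and those of the libraries without MNU name vehicle for 6 months. The design asked how loss of the kinase alters thymic gene expression with and without MNU, and each of the 4 groups had 1 library, so that no difference below has a replicate check or a p-value. The number of mice behind each library and the way the Camk2g allele was made are not stated in the labels.

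Normalised counts summed to between 32911362 and 34836257 per library. Camk2g, which checks the labels, was at 2749 normalised counts in untreated and 3173 in MNU-treated wild type, at 489 in the untreated library labelled knockout and at 29.7 in the treated knockout. The library labelled knockout without MNU thus kept 17.8% of the wild-type level, against 1.08% in knockout with MNU. It also stood a median of 15.4% of the way up to wild type with MNU for 42 genes, those whose level there was above 1000 and over 20 times that of untreated wild type and of the treated knockout alike, measured from the mean of these last libraries. Results that rest on it are therefore given with and without it. The T cell markers were measured in every library (10 of 10). Their sum was highest in wild type without MNU (237720 normalised counts) and lowest in wild type with MNU (149212). There 2 of the 10 were at least 2-fold lower than in wild type without MNU. The part of T cell number in the levels below was not tested. The 13 thymic epithelial markers summed to 106913 in wild type without MNU and to 1000 in wild type with MNU, where Foxn1, the transcription factor on which thymic epithelium depends, was listed at 0.

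TNF superfamily ligands are mostly trimeric membrane proteins that signal between neighbouring cells. Their receptors either carry a death domain, which recruits TRADD, FADD and RIPK1 and can lead to apoptosis, or bind TRAF adaptors, which lead to NF-kappaB. In the canonical branch the IkappaB kinases free RELA and REL, while in the non-canonical branch NIK (Map3k14) drives processing of NFKB2 to a form that acts with RELB. In the thymus, RANK ligand (Tnfsf11), CD40 ligand and lymphotoxin from T-lineage cells act on these pathways in medullary epithelial cells and thereby build the medulla.

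The promoters of Ltb, Nfkb2 and Tnfrsf8 are shown because they belong to members with large differences in wild type with MNU and hold a match to the degenerate NF-kappaB consensus of 10 bases, searched on both strands with overlapping matches counted. They run from 250 bases before to 50 after a RefSeq start site (GRCm38.p6, another build than the mm9 of the submitters' notes, and matched by symbol), and capitals mark the matches. Ltb, at chr17:35194257-35194556 on the plus strand, and Nfkb2, at chr19:46304487-46304786 on the plus strand, were lower with MNU in wild type, and Tnfrsf8, at chr4:145315115-145315414 on the minus strand and chosen after its values were seen, was higher.
Ltb: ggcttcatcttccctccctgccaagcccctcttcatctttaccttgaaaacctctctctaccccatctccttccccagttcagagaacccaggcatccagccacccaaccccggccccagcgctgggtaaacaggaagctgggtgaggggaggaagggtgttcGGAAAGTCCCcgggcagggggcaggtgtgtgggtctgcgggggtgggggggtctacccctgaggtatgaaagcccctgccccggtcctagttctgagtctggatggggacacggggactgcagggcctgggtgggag
Nfkb2: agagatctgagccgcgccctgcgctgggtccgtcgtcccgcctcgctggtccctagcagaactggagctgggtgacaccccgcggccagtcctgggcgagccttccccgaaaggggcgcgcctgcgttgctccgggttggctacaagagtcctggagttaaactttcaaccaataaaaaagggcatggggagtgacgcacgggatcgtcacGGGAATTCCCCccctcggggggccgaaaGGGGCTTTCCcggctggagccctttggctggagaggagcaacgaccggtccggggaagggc
Tnfrsf8: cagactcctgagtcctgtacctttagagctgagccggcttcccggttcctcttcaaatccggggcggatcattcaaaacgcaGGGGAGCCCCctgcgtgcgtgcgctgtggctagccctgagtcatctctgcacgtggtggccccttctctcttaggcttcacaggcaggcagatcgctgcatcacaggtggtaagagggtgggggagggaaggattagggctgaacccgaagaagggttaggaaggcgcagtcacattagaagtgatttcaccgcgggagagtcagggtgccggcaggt
The Ltb match began 87 bases before the start site. The Nfkb2 window held 2 separate stretches of matches, the first beginning 39 and the second 11 bases before the start site, and 2 further RefSeq windows of Nfkb2 also held matches. The Tnfrsf8 match began 168 bases before the start site. Of the 41 members 35 had a promoter window, and 7 of the 35 (20%) held a match in at least 1 window, against 5.14% of all RefSeq genes with a window and 6.36% of the genes tested that had one. The other 4 were Tnfrsf9, Tnfaip3, Traf3 and Tnfaip8l1. Relb, the member with the largest decrease with MNU in wild type, had no promoter window. Tnfrsf13c, Tnfrsf4, Tnfrsf14, Tnfsf11, Traf1, Tnfrsf21 and Ltbr differed more than Nfkb2 and had a window without a match. A match is a description of these letters and not a binding site, and members with a match differed in both directions, so the levels of Ltb, Nfkb2 and Tnfrsf8 below are set beside these sequences without a link between them.

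In wild type, the thymus with MNU held fewer transcripts of most lymphotoxin, co-stimulatory and non-canonical NF-kappaB members and more of 3 others. Relb, the NF-kappaB subunit of the non-canonical branch, was 8.45-fold lower, Tnfrsf13c, the B cell receptor for BAFF, 6.39-fold lower, Tnfrsf4 (OX40) 5.12-fold lower and Ltb, the membrane anchor of lymphotoxin, 4.71-fold lower. Tnfrsf8 (CD30) was 6.95-fold higher, Tnfsf11 (RANK ligand) 4.29-fold higher and Traf6, the adaptor of RANK, CD40 and Toll-like receptors, 2.42-fold higher. Differences were counted at 2-fold or more on the log2(normalised count + 10) scale, and folds are ratios of the normalised counts themselves. By that rule 12 of 41 members were lower (29.3%), where 14.2% of all genes tested were lower, and 3 of 41 were higher (7.32%), where 7.14% of all genes were. The median log2 difference of the members was -0.56, and that of all genes was -0.01.

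**Figure D1:**
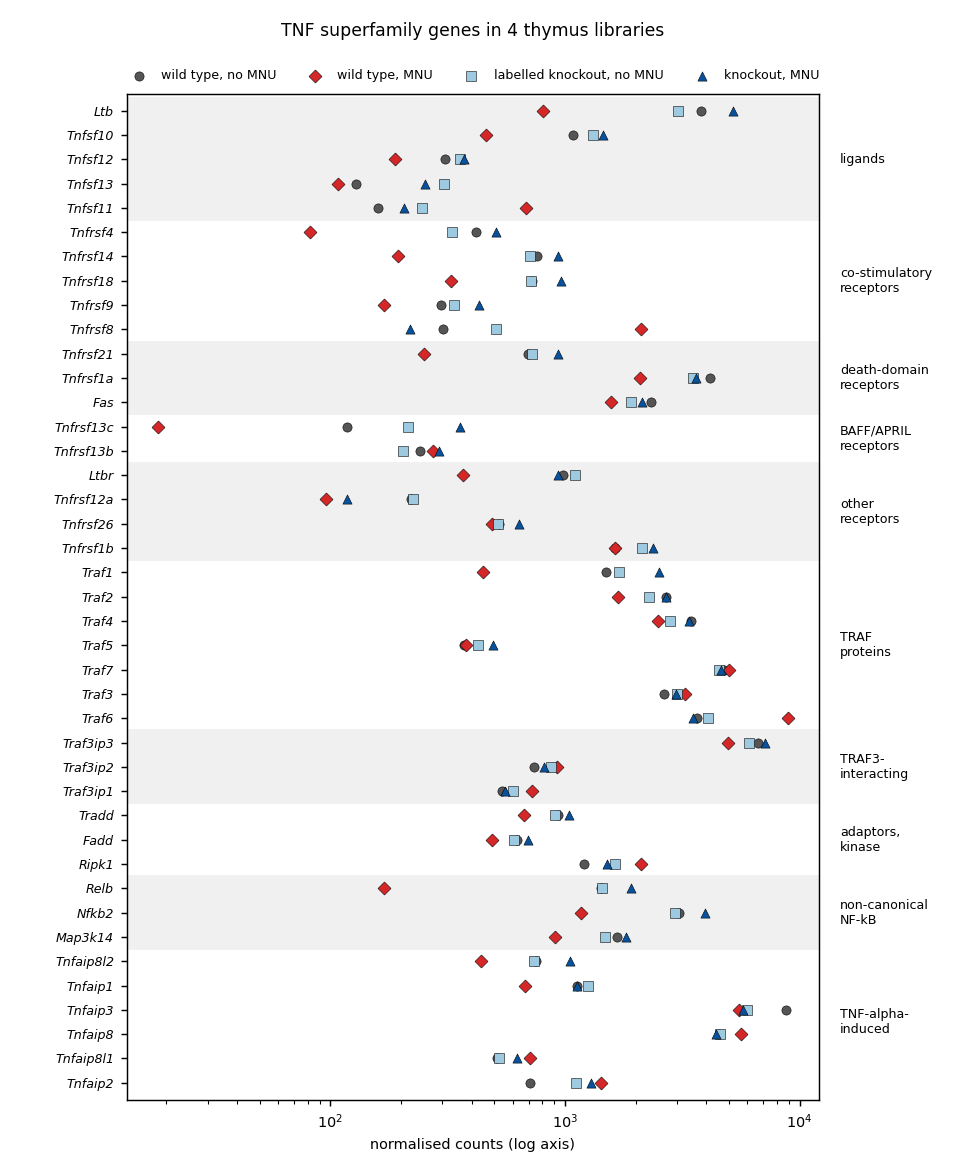
Normalised counts (log axis) of the 41 members by role, 1 point for each of the 4 libraries, with no error bars because each group had 1 library. Wild type with MNU (red diamonds) lies far left for Relb at 169 and Tnfrsf13c at 18.5 and far right for Tnfrsf8 at 2102 and Traf6 at 8889.

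Levels are given from here on in the order untreated wild type, wild type with MNU, untreated library labelled knockout, knockout with MNU. Among the ligands, Ltb stood at 3784, 804, 3040 and 5196 normalised counts, lowest by far in wild type with MNU and highest in knockout with MNU. Tnfsf10, which encodes the death ligand TRAIL, stood at 1082, 459, 1318 and 1457, again with wild type with MNU alone at the low end. Tnfsf11 ran the other way, at 160, 685, 246 and 205, so that wild type with MNU stood above the other libraries. RANK ligand is the signal that medullary epithelial cells and osteoclast precursors receive through RANK. Tnfsf13, which encodes APRIL, a survival factor of plasma cells, stood at 129, 108, 306 and 253, so that the pair of wild-type libraries lay below the pair labelled knockout. Tnfsf12 (TWEAK), at 309, 189, 358 and 370, stayed within 2-fold in each comparison.

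The receptors grouped here as co-stimulatory split in wild type with MNU. Of the 5, 3 were at least 2-fold lower, where 14.2% of all genes were, and 1 was higher, where 7.14% of all genes were. Tnfrsf4 stood at 418, 81.7, 329 and 509, and Tnfrsf18, which encodes GITR, at 726, 328, 718 and 965. Tnfrsf14, the receptor HVEM that binds LIGHT and BTLA, stood at 762, 194, 709 and 936. For these 3 genes the other 3 libraries were at most 1.54-fold apart, and wild type with MNU lay below them. Tnfrsf9 (4-1BB) was also lowest in wild type with MNU, at 296, 170, 338 and 429, with a 1.74-fold difference in wild type. Tnfrsf8 stood at 302, 2102, 508 and 219. CD30 is a receptor of activated lymphocytes and a marker of several human lymphomas, and here it was the member with the largest increase in wild type with MNU. OX40 and GITR are also abundant on regulatory T cells. Of that cell type's 4 measured markers, 2 were at least 2-fold higher with MNU in wild type and 1 was lower, their sum being 7472 without and 14097 with MNU. The rise of the sum lay mostly in Il2ra, at 2661 without and 10124 with MNU. Gpr83 stood at 84.3 and 1196, Ctla4 at 456 and 740, and Ikzf2 at 4271 and 2037. Foxp3, the defining gene of regulatory T cells, was not analysed here, and the part of these cells in the receptor levels was not tested.

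All 3 death-domain receptors were lower by some amount in wild type with MNU, as were 68.3% of the members and 50.3% of all genes. Of the 3, 1 was past 2-fold, where 14.2% of all genes were. Tnfrsf21 (DR6) stood at 695, 250, 721 and 936. Tnfrsf1a, the main TNF receptor of most cells, stood at 4161, 2086, 3526 and 3629, a 1.99-fold difference that lay just under the threshold. Fas stood at 2319, 1572, 1905 and 2131. Their adaptors and kinase stayed within 2-fold in every comparison, with Tradd at 932, 670, 911 and 1043, Fadd at 625, 489, 609 and 697, and Ripk1, the kinase that switches between survival and death signals, higher rather than lower with MNU at 1201, 2100, 1628 and 1514. Among the remaining receptors Ltbr, the lymphotoxin beta receptor of stromal and myeloid cells, stood at 985, 368, 1104 and 935. Tnfrsf12a, the TWEAK receptor, stood at 221, 95.7, 225 and 117, and was low in both MNU libraries. Tnfrsf1b, the TNF receptor of lymphocytes and myeloid cells, stood at 1642, 1632, 2135 and 2364 and did not separate the MNU libraries. Tnfrsf26 lay between 487 and 637.

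Tnfrsf13c was the member with the widest spread, at 118, 18.5, 215 and 357, a 19.4-fold ratio between the highest and lowest libraries. Some B cell markers had a like order and others did not. Ms4a1 (CD20) stood at 413, 10.1, 648 and 1248 and Cd79a, a chain of the B cell antigen receptor, at 562, 50.1, 977 and 1657, whereas Cd79b, the other such chain, stood at 840, 1034, 1095 and 1744 and Blk, a kinase of B cells, at 254, 796, 557 and 575. Of the 6 measured of 8 B cell markers, 4 were at least 2-fold lower and 1 was higher in wild type with MNU than without, and 6 of 6 were at least 2-fold higher in knockout with MNU than in wild type without. Their summed level was 3003, 2261, 4832 and 7682, and none was listed at 0. The part of B cell number in the Tnfrsf13c level was not tested, and in bulk tissue fewer cells of a type and less RNA per cell cannot be told apart. Tnfrsf13b (TACI), the other measured receptor of the BAFF and APRIL pair, stood at 242, 275, 205 and 291 and did not share that order.

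The TRAF adaptors differed among themselves. Traf1, itself a textbook NF-kappaB target, stood at 1499, 446, 1705 and 2522 and was 3.36-fold lower with MNU in wild type. Traf6 stood at 3672, 8889, 4083 and 3528, with wild type with MNU more than 2-fold above each other library. The other 5 TRAF genes were within 2-fold in every comparison. With MNU in wild type, 8331 of all 10587 genes were within 2-fold. Traf2 stood at 2700, 1689, 2272 and 2689, Traf3, which keeps NIK low in resting cells, at 2643, 3254, 3016 and 2963, and Traf7 between 4550 and 5027. Traf4 lay between 2494 and 3430 and Traf5 between 372 and 492. Traf3ip1, Traf3ip2 and Traf3ip3, which carry the name of TRAF3 partners, had wild-type MNU differences of 0.41, 0.32 and -0.42 on the log2 scale.

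Lymphotoxin beta, its receptor and the 3 genes of the non-canonical branch were all lower in wild type with MNU than without, where 50.3% of all genes were lower by any amount. Map3k14 stood at 1667, 907, 1488 and 1816, Nfkb2 at 3056, 1175, 2938 and 3967, and Relb at 1428, 169, 1444 and 1905. In each case wild type with MNU was the lowest library and knockout with MNU the highest. Of these 3 genes, Nfkb2 and Relb were past 2-fold in wild type, and so were Ltb and Ltbr upstream of them, whereas Map3k14 was 1.84-fold lower. The same library held lower levels of most markers listed for epithelial and dendritic cells, in which this branch is active. Of the 13 thymic epithelial markers 12 were at least 2-fold lower than in wild type without MNU. Of the 6 measured of 10 dendritic cell and MHC class II markers 6 were lower, with sums of 119948, 4762, 143517 and 161063. These sums lay mostly in Cd74 and the H2 genes of MHC class II, so they do not measure dendritic cells alone. Itgax stood at 930, 303, 1668 and 2591, and Ccl22 at 2049, 3.61, 1356 and 2008. The part of epithelial and dendritic cells in the levels of Relb, Nfkb2 and Ltbr was not tested.

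Of the 6 genes named as TNF-alpha-induced proteins none passed 2-fold in wild type, where 7.14% of all genes were higher and 14.2% lower. Tnfaip3 (A20), the deubiquitinase that ends NF-kappaB signalling, stood at 8782, 5516, 5953 and 5721, so that wild type without MNU stood above the other 3 libraries. Tnfaip2 stood at 712, 1426, 1111 and 1297, a wild-type ratio near 2 that fell just short on the scale with the added 10. Tnfaip8l2 (TIPE2), a regulator of lymphocyte activation, stood at 754, 441, 735 and 1054. Tnfaip8 lay between 4400 and 5612, Tnfaip1 between 678 and 1259 and Tnfaip8l1 between 513 and 710. These genes carry the name of the cytokine, but belong to several protein families.

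Beyond the members, 48 of 56 further genes of TNF receptor and NF-kappaB signalling were measured, and 11 were at least 2-fold lower (22.9%, against 14.2% of all genes) and 3 higher (6.25%, against 7.14%) with MNU in wild type, with a median log2 difference of -0.05. Cd40lg, the T cell ligand of CD40, stood at 289, 1.75, 186 and 337, and its receptor gene Cd40 at 549, 23.1, 464 and 639. Ccl19, a chemokine of thymic medullary stroma, was 11.1-fold lower and Icam1, an adhesion molecule and NF-kappaB target, 4.01-fold lower. The higher 3 were Cxcl13, a B cell chemokine (147, 2732, 626 and 268), and Tab3 (2.35-fold) and Tab1 (2.01-fold), partners of the kinase TAK1 downstream of TRAF6. Within the NF-kappaB family, Rel was 3.69-fold lower (424, 115, 403 and 608), while Rela stood at 3225, 2592, 3332 and 3650 and Nfkb1 at 5477, 5181, 6221 and 6829. The IkappaB kinase genes Ikbkb (4773, 4861, 4694 and 4857) and Chuk (3036, 3092, 2916 and 2975) were nearly level across the 4 libraries. In the other comparisons Cxcl13 was the 1 pathway gene past 2-fold with MNU in the knockout (lower) and the 1 past it without MNU between genotypes (4.26-fold higher in the library labelled knockout). Both rested on that library, where Cxcl13 stood 16.6% of the way up to wild type with MNU. With the 15.4% share of the 42 genes subtracted from that library, the log2 differences of Cxcl13 were 0.13 and 0.69, neither past 2-fold, and in knockout with MNU it was 1.82-fold above untreated wild type. With MNU, 11 pathway genes were higher (22.9%, against 15.0% of all genes) and 2 lower (4.17%, against 7.37%) in knockout than in wild type.

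**Figure D2:**
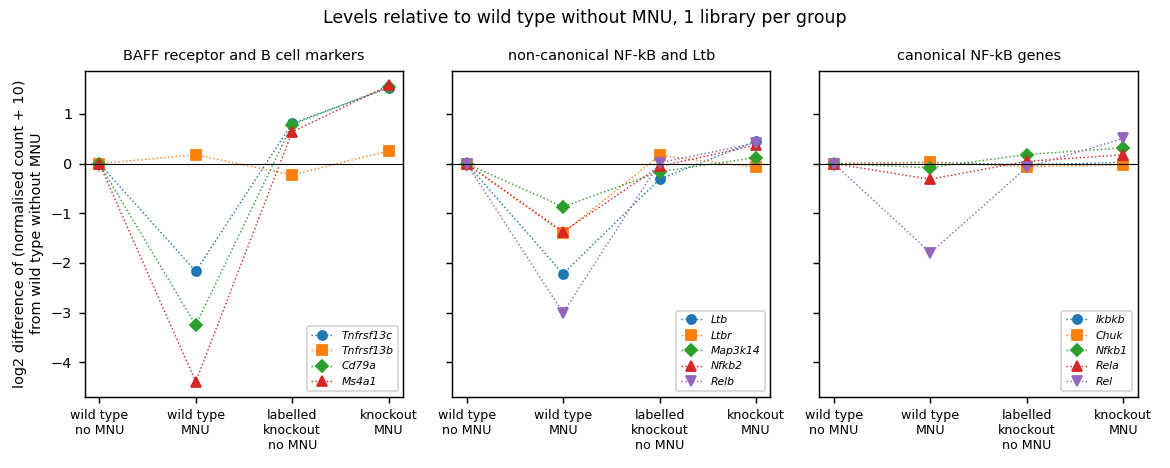
Log2 difference of (normalised count + 10) from wild type without MNU in the 4 libraries, 1 library per group and thus no error bars, for BAFF receptor and B cell markers (left), Ltb with the non-canonical NF-kappaB genes (middle) and canonical NF-kappaB genes (right). In wild type with MNU, Relb lies at -3.01 and Rel at -1.80, whereas Ikbkb lies at 0.03, and the lines only join points of 1 gene.

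In the knockout, members in the MNU library were close to their levels in the library labelled knockout without MNU. By the 2-fold rule 0 of 41 members were higher and 1 was lower, Tnfrsf8 (508 against 219), where 0.331% of all genes were higher and 2.95% lower. The Tnfrsf8 difference rested on the library labelled knockout without MNU. There Tnfrsf8 stood 13.4% of the way from the mean of untreated wild type and treated knockout up to wild type with MNU, Tnfsf11 12.7% and Traf6 9.12%, close to or under the 15.4% of the 42 genes. With 15.4% of the profile of wild type with MNU subtracted, the Tnfrsf8 difference was 0.0030 on the log2 scale, and against wild type without MNU it was -0.45. Tnfrsf12a was then the member past 2-fold, at -1.02 with the share subtracted and -0.88 as deposited. With the share subtracted, 1.87% of all genes were at least 2-fold lower and 0.397% higher.

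Smaller differences in the knockout mostly pointed up. Of 41 members 28 were higher with MNU by any amount (68.3%), where 52.9% of all genes were, with a median log2 difference of 0.19, where the median of all genes was 0.01. As deposited, Ltb had the largest increase, at 1.71-fold, followed by Tnfrsf13c at 1.67-fold and Tnfrsf4 at 1.54-fold. These folds rest on the library labelled knockout without MNU. After removal of the 15.4% share its levels rose to 3446 for Ltb, 250 for Tnfrsf13c and 374 for Tnfrsf4. Each stayed below knockout with MNU, at 5196, 357 and 509, but by a smaller fold. The member median was then 0.17 and that of all genes 0.04. Relative to untreated wild type, Ltb was 1.37-fold and Tnfrsf4 1.22-fold higher in knockout with MNU. Against wild type without MNU the members of knockout with MNU had a median of 0.26, and 1 of 41 was at least 2-fold higher, Tnfrsf13c at 3.03-fold, where 1.57% of all genes were higher. No member was lower in that comparison, where 1.11% of all genes were.

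**Figure D3:**
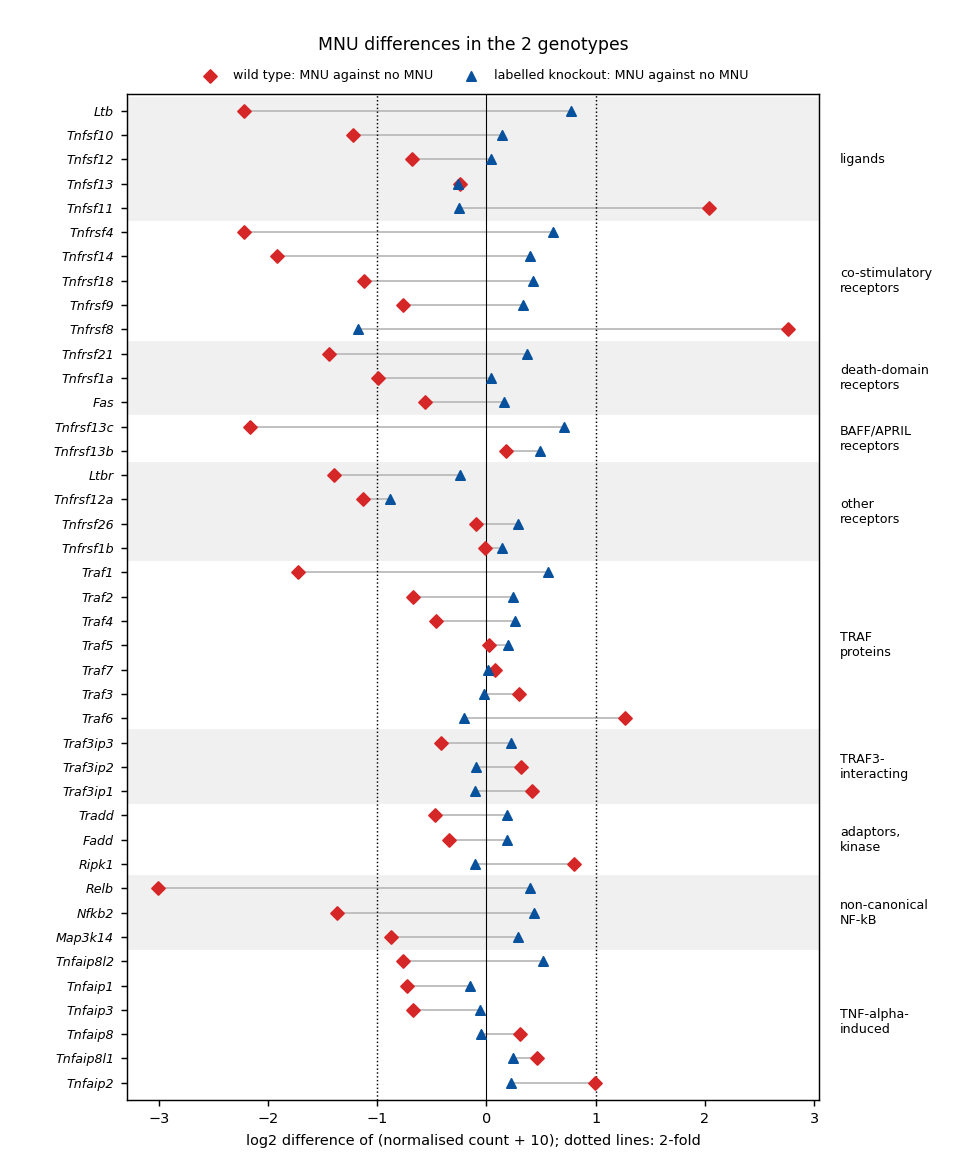
Log2 difference of (normalised count + 10) between libraries with and without MNU for each member, in wild type (red diamonds) and in libraries labelled knockout (blue triangles), with dotted lines at 2-fold and no error bars because each group had 1 library. In wild type 12 members lie left of the lower line and 3 right of the upper line, and in the knockout Tnfrsf8 alone lies outside them.

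Without MNU, Tnfsf13 was the member that differed at least 2-fold between genotypes, 2.37-fold higher in the library labelled knockout (306 against 129). That is 1 of 41 members higher, where 2.59% of all genes were higher, and 0 of 41 lower, where 0.359% of all genes were. With the share subtracted the Tnfsf13 difference was 1.34 on the log2 scale as against 1.18 as deposited, and Tnfrsf13c passed 2-fold beside it at 1.02. Of all genes 1.72% were then at least 2-fold higher. In knockout with MNU, which does not depend on the doubted library, Tnfsf13 was 1.97-fold above wild type without MNU. Macrophage markers, from cells that make APRIL, summed to 18643, 32697, 29606 and 35283 over 8 measured of 11, high also in wild type with MNU where Tnfsf13 was low, and their part in the Tnfsf13 level was not tested. Tnfsf13 lies beside Tnfsf12 in RefSeq, shares a read-through transcript (Tnfsfm13) with it and overlaps an antisense RNA. Reads in these overlaps may come from the read-through transcript or, without strand information, from the antisense RNA. Their part in the Tnfsf13 level was not tested.

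With MNU, knockout thymus stood above wild type for 14 of 41 members (34.1%), where 15.0% of all genes were higher, and below it for 3 of 41 (7.32%), where 7.37% of all genes were lower. The median log2 difference of the members was 0.53, and that of all genes was 0.01. Tnfrsf13c was 19.4-fold higher in the knockout, Relb 11.3-fold, Ltb 6.46-fold, Tnfrsf4 6.23-fold and Traf1 5.65-fold. Between 2-fold and 5-fold higher were Tnfrsf14 (4.82), Tnfrsf21 (3.74), Nfkb2 (3.38), Tnfsf10 (3.17), Tnfrsf18 (2.94), Ltbr (2.54), Tnfrsf9 (2.52), Tnfaip8l2 (2.39) and Tnfsf13 (2.35). Tnfrsf8 was 9.61-fold lower in the knockout, Tnfsf11 3.34-fold and Traf6 2.52-fold. This comparison shares the library of wild type with MNU with the comparison of MNU in wild type, so the pair of them is not independent.

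**Figure D4:**
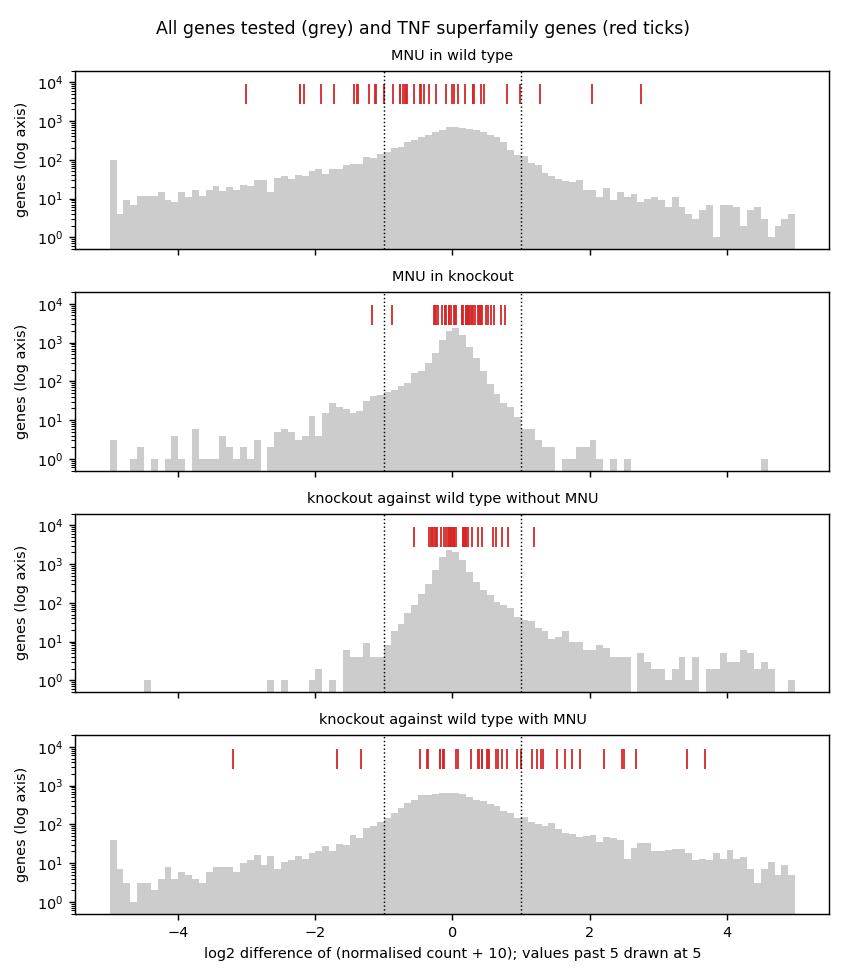
Distribution of log2 differences of (normalised count + 10) over 10587 genes (grey, gene number on a log axis) in 4 comparisons, with the 41 members as red ticks and dotted lines at 2-fold. Member ticks spread on both sides in the first and last panels, with medians of -0.56 and 0.53, and stay within 2-fold except 1 in each middle panel.

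Taking the 4 libraries together, 28 of 41 members were lowest in wild type with MNU (68.3%), where 43.3% of all genes were, and 21 of 41 were highest in knockout with MNU (51.2%), where 24.3% of all genes were. The ratio of the highest to the lowest library reached 2 for 20 of 41 members (48.8%), where it did for 26.1% of all genes without a 0. Over the 3 libraries without that of wild type with MNU it did so for 3 of 41 (7.32%), near the 5.62% of all genes: Tnfrsf13c (3.03), Tnfsf13 (2.37) and Tnfrsf8 (2.32). The 23 members within 2-fold in all 5 comparisons had levels between 189 and 8782 and ratios of highest to lowest library of at least 1.10 and at most about 2. The share of all genes within 2-fold in all 5 comparisons was not counted. With MNU in wild type alone, 26 of 41 members and 8331 of all 10587 genes were within 2-fold.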

How the data were processed

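RNA had been sequenced from 4 thymus libraries prepared with a TruSeq kit, per the labels' protocols, and the submitters' processing notes list TopHat2 2.0.8b, edgeR and the build mm9 but not what each was used for. The sources used here do not give the counting, gene filter or normalisation. In the deposited table the authors gave 1 signal per gene and library, as normalised counts. From the values, 1 unit appeared to stand for about 1 read, which the sources do not state. The values were not whole reads, so no count model or counting interval was used. Values were used as deposited, 10 was added before the log2, and 11 of 10598 genes with a mean under 10 were removed. With 1 library per group no test was possible, and variation between mice or libraries could not be estimated. Depth bears on the counting part of precision only.

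A difference of 2-fold or more on the log2(normalised count + 10) scale was counted, over all genes, for 5 comparisons. The members, roles, pathway list, marker lists and alternatives were chosen with earlier results of these data known. Members past 2-fold in any comparison with at least 100 normalised counts in a library are given in full, and of the pathway list up to 4 in each direction, with other genes named as examples after their values were seen. All 41 members matched RefSeq (GRCm38.p6) by symbol, and 11 overlap another protein-coding gene there, among the members given in full Nfkb2, Tnfrsf4, Tnfrsf12a, Tnfaip8l2 and Tnfsf13. One listed B cell marker is not reported here. The labels do not state that strand was kept, so reads of overlapping genes may be shared. Python 3.11.15, numpy 2.4.6 and pandas 2.3.3 were used, and the counting rule was tested on simulated data.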

Additional observations from a re-analysis of the deposited data

Results flagged for a closer look

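Tnfrsf8 was at least 2-fold higher with MNU in wild type and at least 2-fold lower with MNU in the knockout. Its MNU difference in the knockout minus that in wild type was -3.94 on the log2 scale. Cxcl13 of the pathway list moved in opposite directions past 2-fold in the same way, with a difference of -5.32. Each genotype gave 1 library per condition, so neither difference was tested, and the knockout part of both rested on the library labelled knockout without MNU, where subtracting the wild-type MNU share left differences of 0.0030 for Tnfrsf8 and 0.13 for Cxcl13. With untreated wild type in its place they were -0.45 and 0.82. Opposite signs with either part under 2-fold were not counted here.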

How the results depend on the processing

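Pseudocounts of 2.5 and 40, no filter, a filter at a mean of 100, and scaling by median of ratios or by upper quartile kept every count of members within 1.5 times its value and every member median within 0.1 on the log2 scale. Under the pseudocount of 40, Tnfrsf12a in wild type (-0.94) and Tnfsf13 in knockout against wild type with MNU (0.99) were no longer past 2-fold. At a 4-fold threshold 4 members were lower with MNU in wild type (686 of all 10587 genes) and 0 in the knockout (73). Without MNU, 0 were then higher in the library labelled knockout than in wild type (92 of all genes). At that threshold 6 were higher (724 of all genes) and 1 lower (267) in knockout than in wild type with MNU. Between knockout with MNU and wild type without, 0 were higher in the knockout (37 of all genes). With the wild-type MNU share subtracted, 2 members were higher in the library labelled knockout than in wild type without MNU, where 182 of all genes (1.72%) were. The knockout MNU differences of Tnfrsf8 and Cxcl13 were then 0.0030 and 0.13. That subtraction uses the level in wild type with MNU and raises negative levels to 0. The following alternatives were chosen after seeing the data. Using untreated wild type for the library labelled knockout without MNU gave 1 member higher (166 of all genes) and 0 lower (117) with MNU in the knockout. Cxcl13 was then at 0.82. Using knockout with MNU for that library gave a member median of 0.26 for knockout against wild type without MNU, as against 0.02 with the library as deposited. With 1 library per group, no replicate could be left out, and no paired analysis was possible because each group had 1 sample. The lowest level of a member given in full was 18.5 for Tnfrsf13c in wild type with MNU. It would stand for about as many reads if 1 unit was about 1 read. By read number alone the folds of Tnfrsf13c would then be the least precise.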

Other observations

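Members that lie next to each other in RefSeq did not always share a pattern. Tnfrsf8 and Tnfrsf1b are adjacent protein-coding genes, and with MNU in wild type Tnfrsf8 differed by 2.76 on the log2 scale and Tnfrsf1b by -0.01. Tnfrsf4 and Tnfrsf18, also adjacent, differed by -2.22 and -1.12, and Ltbr and Tnfrsf1a, with Scnn1a between them, by -1.40 and -0.99. The neighbours Tnfsf12 and Tnfsf13 differed by 0.20 and 1.18 between the library labelled knockout and wild type without MNU, although they share a read-through transcript. These pairs were picked after their values were seen and no test was made of them.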
